A study of Mus musculus with 12 samples.

Results

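The genes examined here encode the machinery that displays peptides to T cells on MHC class I and class II molecules. They were taken by name: every gene whose symbol in the platform annotation begins with H2-, plus B2m, Tap1, Tap2, Tapbp, Cd74, Ciita, Nlrc5, Ctss and Ifi30, with all their probes. This gave 44 genes with 57 probes, out of 16593 named genes and 25697 probes on the array. By role, 29 genes belong to class I, 14 to class II, and 1, H2-Ke6, lies in the same region but encodes an enzyme of steroid and fatty acid metabolism. Oral tumours of mice were profiled with Illumina MouseRef-8 v2 bead arrays in 2 groups: 6 tumours labelled KHR-NICD and 6 labelled KHR. All came from FVB x C57BL/6 F1 animals and grew for 21 days before isolation. KHR is not spelled out in the labels, and NICD usually abbreviates the Notch intracellular domain, the fragment of a Notch receptor that acts in the nucleus. The labels and design text do not say what drives NICD, in which cells, or how the tumours were started, and age and sex are not given. The labels call the tumours biological replicates without saying that each came from its own animal, so each p-value here is set against the variation among these 12 samples, which may be partly technical.

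Class I molecules sit on nearly all nucleated cells. A heavy chain such as H2-K1 or H2-D1 pairs with the light chain B2m and receives peptides made by the proteasome and pumped into the endoplasmic reticulum by the Tap1-Tap2 transporter, with Tapbp (tapasin) holding the empty molecule at the transporter, and Nlrc5 switches these genes on. Class II molecules, made of alpha and beta chains such as H2-Aa and H2-Ab1, are a hallmark of dendritic cells, macrophages and B cells, and interferon-gamma can induce them on epithelial cells through Ciita. Cd74, the invariant chain, guards the class II groove until H2-DM loads a peptide in the endosome. In the oral lining, Langerhans cells carry class II, and T cells read both classes.

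Promoters of these genes are known to share short elements, the X and Y boxes read by the RFX and NF-Y complexes, and class I promoters also carry a kappa B and an interferon element. RefSeq (GRCm38.p6) held a promoter entry for 32 of the 44 genes and for 15 of the 21 measured ones. The 250 bases before the annotated start of 4 measured genes are shown because they place these elements side by side in a non-classical and a classical class I gene, H2-Q7 at chr17:35438905-35439154 and H2-D1 at chr17:35262844-35263093, and in 2 class II chains, H2-Eb1 at chr17:34305617-34305866 and H2-DMb1 at chr17:34152941-34153190. All 4 lie on the plus strand and are written 5′ to 3′. Capitals mark matches, on either strand, to the Y box TGATTGG, the X box core CTNGNAAC, the interferon element GAANNGAAA and the kappa B element GGGATTCCC. The assembly is that of C57BL/6J, and the FVB haplotype of these tumours was not read.
H2-Q7: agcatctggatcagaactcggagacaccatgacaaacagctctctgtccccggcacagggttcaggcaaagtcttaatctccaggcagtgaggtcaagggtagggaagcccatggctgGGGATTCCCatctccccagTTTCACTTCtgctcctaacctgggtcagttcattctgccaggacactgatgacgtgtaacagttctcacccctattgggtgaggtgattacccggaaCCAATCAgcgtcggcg
H2-D1: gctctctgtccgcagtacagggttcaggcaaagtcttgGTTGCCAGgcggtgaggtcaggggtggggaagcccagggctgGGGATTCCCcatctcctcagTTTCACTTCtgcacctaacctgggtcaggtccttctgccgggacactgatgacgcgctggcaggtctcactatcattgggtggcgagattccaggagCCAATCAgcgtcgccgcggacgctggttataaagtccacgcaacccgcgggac
H2-Eb1: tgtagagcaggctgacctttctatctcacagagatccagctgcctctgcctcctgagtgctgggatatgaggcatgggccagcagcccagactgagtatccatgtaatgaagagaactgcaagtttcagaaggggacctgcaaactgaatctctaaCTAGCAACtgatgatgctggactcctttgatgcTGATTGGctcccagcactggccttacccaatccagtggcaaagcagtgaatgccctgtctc
H2-DMb1: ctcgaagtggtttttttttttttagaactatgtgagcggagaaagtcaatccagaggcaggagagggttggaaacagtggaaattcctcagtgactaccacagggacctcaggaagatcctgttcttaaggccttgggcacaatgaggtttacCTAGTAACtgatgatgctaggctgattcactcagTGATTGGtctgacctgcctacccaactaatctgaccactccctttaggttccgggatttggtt

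The 2 class II windows carry an X box core and, closer to the start, a Y box. In H2-Eb1 these matches begin 94 and 61 bases before the start, and in H2-DMb1 97 and 63 bases before it. H2-Q7 and H2-D1 share a kappa B match followed by an interferon match, at 132 and 113 bases before the start in H2-Q7 and at 170 and 150 bases in H2-D1. No 2 of the marked matches overlap. Among genes with an entry, the Y box was found in 12 of 21 class I and 7 of 10 class II genes, against 7.23% of the 32851 promoter windows of all genes. The X box core was found in 6 of 21 and 5 of 10, against 10.9% of all windows, and the interferon element in 6 of 21 and 1 of 10, against 6.31%. The kappa B element was found in H2-K1, H2-D1 and H2-Q7 and in 0 of 10 class II genes, against 0.301% of all windows. A match describes letters only, and binding was not measured.

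**Figure D1:**
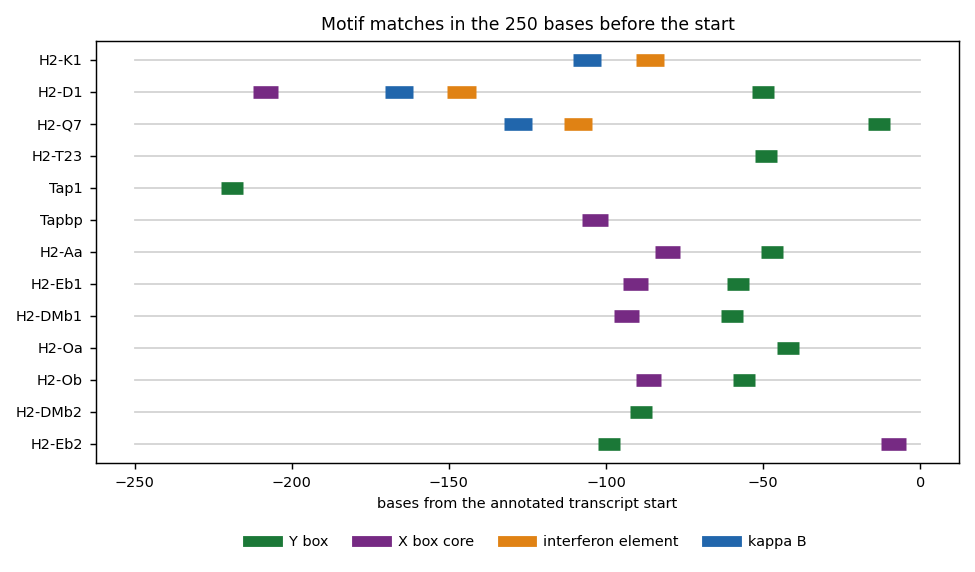
Positions of motif matches in the 250 bases before the annotated start, in bases from that start, for 13 of the antigen presentation genes that have a RefSeq promoter entry and a match (grey lines, upstream windows; coloured blocks, matches on either strand). The class II chains H2-Aa, H2-Eb1, H2-DMb1 and H2-Ob carry an X box core (purple) upstream of a Y box (green), and H2-K1, H2-D1 and H2-Q7 carry a kappa B match (blue) upstream of an interferon match (orange).

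Each array detected 43.6% to 48.1% of its probes, median scanner signals lay between 140.3 and 178.2, and a probe rested on a mean of 33.04 to 37.43 beads. Values below are background-corrected, quantile-normalised log2 signals, and a difference is KHR-NICD minus KHR on that scale. A gene was measured where a probe had a detection p under 0.05 on at least 6 of the 12 arrays. Levels of different genes come from different probes and are not set against each other. Tumours also differed in the Y-linked transcript Eif2s3y, detected in KHR-NICD tumours 1 and 4 and in KHR tumours 4, 5 and 6. Xist, the transcript of the inactive X chromosome, ran the other way, at 4.58 to 5.11 in these 5 tumours, against 6.62 to 7.22 in the 7 without Eif2s3y. The labels give no sex, and tumours are called here only by whether Eif2s3y was detected. What the split stands for was not tested.

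Of the 44 genes, 21 were measured: 13 of class I, 7 of class II, and H2-Ke6. Ciita, the class II transactivator, was detected in 3 KHR-NICD and 2 KHR tumours, with 5.02, 4.90, 5.46, 5.60, 5.49 and 5.29 in KHR-NICD tumours 1 to 6, against 4.98, 5.72, 5.61, 4.80, 5.03 and 5.09 in KHR tumours 1 to 6. Ctss, the protease that trims Cd74, was detected in 1 KHR-NICD and 0 KHR tumours, with 4.91, 4.91, 5.30, 4.73, 4.91 and 4.76 in KHR-NICD tumours 1 to 6, against 5.08, 4.95, 4.70, 4.685, 4.72 and 4.69 in KHR tumours 1 to 6. Neither was tested. H2-M9 was detected in 3 KHR-NICD and 1 KHR tumours. The other 20 genes were detected on 0 of 12 arrays. They include H2-Oa and H2-Ob, which form an inhibitor of H2-DM in B cells, and H2-Ea, the class II E alpha chain, for which the C57BL/6 haplotype is known to carry a defective promoter. They also include the H2-M10 genes, known from the vomeronasal organ, H2-Q10, known as a secreted liver product, and H2-Bl, H2-DMb2, H2-Eb2, H2-M1, H2-M11, H2-Q1, H2-Q2, H2-Q5, H2-T3 and H2-T24. B2m, H2-K1 and Tapbp each had 1 further probe that was detected on 0 arrays.

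The 2 classical class I heavy chains measured overlapped between the tumour types. H2-K1, a classical class I heavy chain, had 5.67, 5.53, 6.40, 5.93, 6.12 and 6.03 in KHR-NICD tumours 1 to 6, against 6.25, 6.38, 6.05, 5.52, 5.81 and 5.87 in KHR tumours 1 to 6. H2-D1, the other classical heavy chain measured, had 6.35, 6.23, 6.25, 5.38, 6.08 and 6.48 in KHR-NICD tumours 1 to 6, against 7.16, 6.63, 6.60, 5.48, 5.54 and 5.81 in KHR tumours 1 to 6. For both genes KHR tumours 1 to 3 stood above KHR tumours 4 to 6, and the lowest H2-D1 value of all was in KHR-NICD tumour 4. The H2-D1 probe was detected in 5 KHR-NICD and 6 KHR tumours, so that lowest value may be a background reading. H2-K1 averaged 5.95 ± 0.32 in KHR-NICD and 5.98 ± 0.31 in KHR tumours (SD, n = 6 each), a difference of -0.03 (95% interval -0.39 to 0.33). H2-D1 differed by -0.07 (95% interval -0.69 to 0.55). Neither passed the test, limma with Benjamini-Hochberg adjustment over 8420 genes, with adjusted p = 0.956 for H2-K1 and 0.942 for H2-D1.

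Most partners of the heavy chains divided the KHR tumours in the same way. B2m, the shared light chain, had 11.32, 11.65, 12.33, 11.75, 12.38 and 12.31 in KHR-NICD tumours 1 to 6, against 12.84, 12.77, 12.75, 11.17, 11.48 and 11.78 in KHR tumours 1 to 6. KHR tumours 1, 2 and 3 held the highest 3 values and KHR tumour 4 the lowest, with the KHR-NICD tumours between them. Nlrc5, the class I transactivator, had 6.52, 7.21, 7.75, 7.26, 7.56 and 7.64 in KHR-NICD tumours 1 to 6, against 8.06, 8.33, 7.98, 6.52, 6.76 and 7.24 in KHR tumours 1 to 6. Tap1, a subunit of the peptide transporter, had 6.51, 5.88, 6.66, 6.45, 7.57 and 7.13 in KHR-NICD tumours 1 to 6, against 7.62, 7.66, 7.57, 5.71, 6.70 and 6.21 in KHR tumours 1 to 6. Tap2, its other subunit, had 7.28, 7.35, 8.11, 7.19, 8.61 and 7.81 in KHR-NICD tumours 1 to 6, against 8.48, 8.93, 8.77, 7.20, 7.43 and 7.75 in KHR tumours 1 to 6. In all 3 genes KHR tumours 1 to 3 again stood above KHR tumours 4 to 6, and KHR-NICD tumour 5 reached the range of those higher KHR tumours for Tap2 and equalled the lowest of them to the second decimal for Tap1. Tapbp had 5.28, 5.35, 5.30, 5.69, 5.66 and 5.67 in KHR-NICD tumours 1 to 6, against 5.41, 5.69, 5.67, 5.36, 5.96 and 5.77 in KHR tumours 1 to 6. Its tumours showed no such separation, and its range was narrow. The differences were -0.17 (SE 0.31) for B2m, -0.16 (SE 0.32) for Nlrc5, -0.21 (SE 0.37) for Tap1, -0.37 (SE 0.33) for Tap2 and -0.15 (SE 0.12) for Tapbp, and none passed limma's test (lowest adjusted p = 0.611).

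The 6 measured non-classical class I genes had negative differences as well, none past the threshold. H2-T10, a ligand of some gamma-delta T cell receptors, had 7.20, 7.12, 7.25, 7.47, 7.84 and 7.56 in KHR-NICD tumours 1 to 6, against 8.38, 8.25, 8.41, 6.89, 7.60 and 7.40 in KHR tumours 1 to 6. Its mean of 7.40 ± 0.27 in KHR-NICD tumours lay 0.42 under the 7.82 ± 0.62 of KHR tumours (SD, n = 6 each), with limma's adjusted p = 0.473, and the difference of -0.42 was furthest from 0 among the measured genes. H2-Q7, the source of the Qa-2 antigen, had 6.86, 6.82, 6.80, 6.97, 7.13 and 7.14 in KHR-NICD tumours 1 to 6, against 7.54, 7.61, 7.83, 6.32, 6.49 and 6.62 in KHR tumours 1 to 6. KHR-NICD tumours lay within 6.80 and 7.14, while KHR tumours split into 3 values at or above 7.54 and 3 at or below 6.62. H2-Q7 and H2-Q8 belong to a cluster of near-identical genes, so their probes may share signal and their values are uncertain in that respect. H2-Q8 had 6.59, 5.98, 6.27, 6.48, 6.57 and 6.40 in KHR-NICD tumours 1 to 6, against 6.85, 6.98, 7.31, 6.10, 6.47 and 6.20 in KHR tumours 1 to 6. H2-M3, which presents formylated bacterial peptides, had 5.14, 4.79, 5.01, 5.75, 5.30 and 5.57 in KHR-NICD tumours 1 to 6, against 5.77, 5.69, 5.78, 5.59, 5.06 and 5.07 in KHR tumours 1 to 6. Its probe was detected on 6 of 12 arrays, the least allowed. H2-T23, which encodes Qa-1, a ligand of the inhibitory NK receptor CD94-NKG2A, had 9.31, 9.31, 9.56, 9.67, 9.61 and 9.56 in KHR-NICD tumours 1 to 6, against 10.16, 9.87, 10.07, 8.94, 9.11 and 9.22 in KHR tumours 1 to 6. H2-M2 had 5.64, 7.04, 7.002, 6.12, 8.85 and 7.66 in KHR-NICD tumours 1 to 6, against 7.91, 8.84, 8.94, 5.15, 6.96 and 6.77 in KHR tumours 1 to 6. KHR tumour 4 was the lowest of all tumours for both H2-T23 and H2-M2, and KHR tumours 1 to 3 lay above the other KHR tumours. The H2-M2 probe was detected in 6 KHR-NICD and 5 KHR tumours, so its lowest value may be a background reading.

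Class II chains and Cd74 divided the KHR tumours in the same way. Cd74 had 10.41, 10.42, 10.21, 10.59, 11.08 and 10.27 in KHR-NICD tumours 1 to 6, against 11.17, 11.14, 10.96, 10.07, 10.38 and 10.02 in KHR tumours 1 to 6. H2-Ab1, the beta chain of I-A, had 10.47, 10.34, 10.55, 10.83, 11.09 and 10.57 in KHR-NICD tumours 1 to 6, against 11.16, 11.14, 11.01, 10.06, 10.41 and 10.17 in KHR tumours 1 to 6. H2-Aa, its alpha partner, had 6.84, 6.82, 6.00, 6.42, 7.14 and 6.48 in KHR-NICD tumours 1 to 6, against 6.88, 6.93, 6.46, 5.88, 6.07 and 5.96 in KHR tumours 1 to 6. For Cd74, H2-Ab1 and H2-Aa, KHR tumours 1 to 3 stood above KHR tumours 4 to 6, and KHR-NICD tumour 5 was the highest of its type. H2-Eb1, the beta chain of I-E, had 8.54, 8.21, 8.09, 8.71, 9.11 and 8.32 in KHR-NICD tumours 1 to 6, against 9.31, 8.98, 8.77, 7.73, 8.03 and 7.95 in KHR tumours 1 to 6. H2-DMa, the alpha chain of the peptide-exchange factor H2-DM, had 6.80, 7.62, 7.15, 6.99, 8.27 and 7.39 in KHR-NICD tumours 1 to 6, against 7.98, 8.02, 7.80, 6.80, 6.98 and 7.07 in KHR tumours 1 to 6. H2-DMb1, a beta chain of H2-DM, had 7.38, 7.03, 6.96, 7.21, 7.88 and 7.15 in KHR-NICD tumours 1 to 6, against 7.90, 8.15, 7.64, 6.49, 6.60 and 6.92 in KHR tumours 1 to 6. Here too the KHR values fell into 3 higher and 3 lower ones. Ifi30, a lysosomal thiol reductase that opens disulphide bonds of antigens, had 9.09, 9.31, 9.18, 9.34, 9.23 and 9.18 in KHR-NICD tumours 1 to 6, against 9.89, 9.11, 9.66, 9.09, 8.89 and 8.94 in KHR tumours 1 to 6. KHR tumours 1 and 3 were highest for Ifi30, and the KHR-NICD tumours lay within 9.09 and 9.34. The differences ran from -0.13 (SE 0.23) for Cd74 to 0.25 (SE 0.23) for H2-Aa. The lowest adjusted p of limma among the 7 genes was 0.659.

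**Figure D2:**
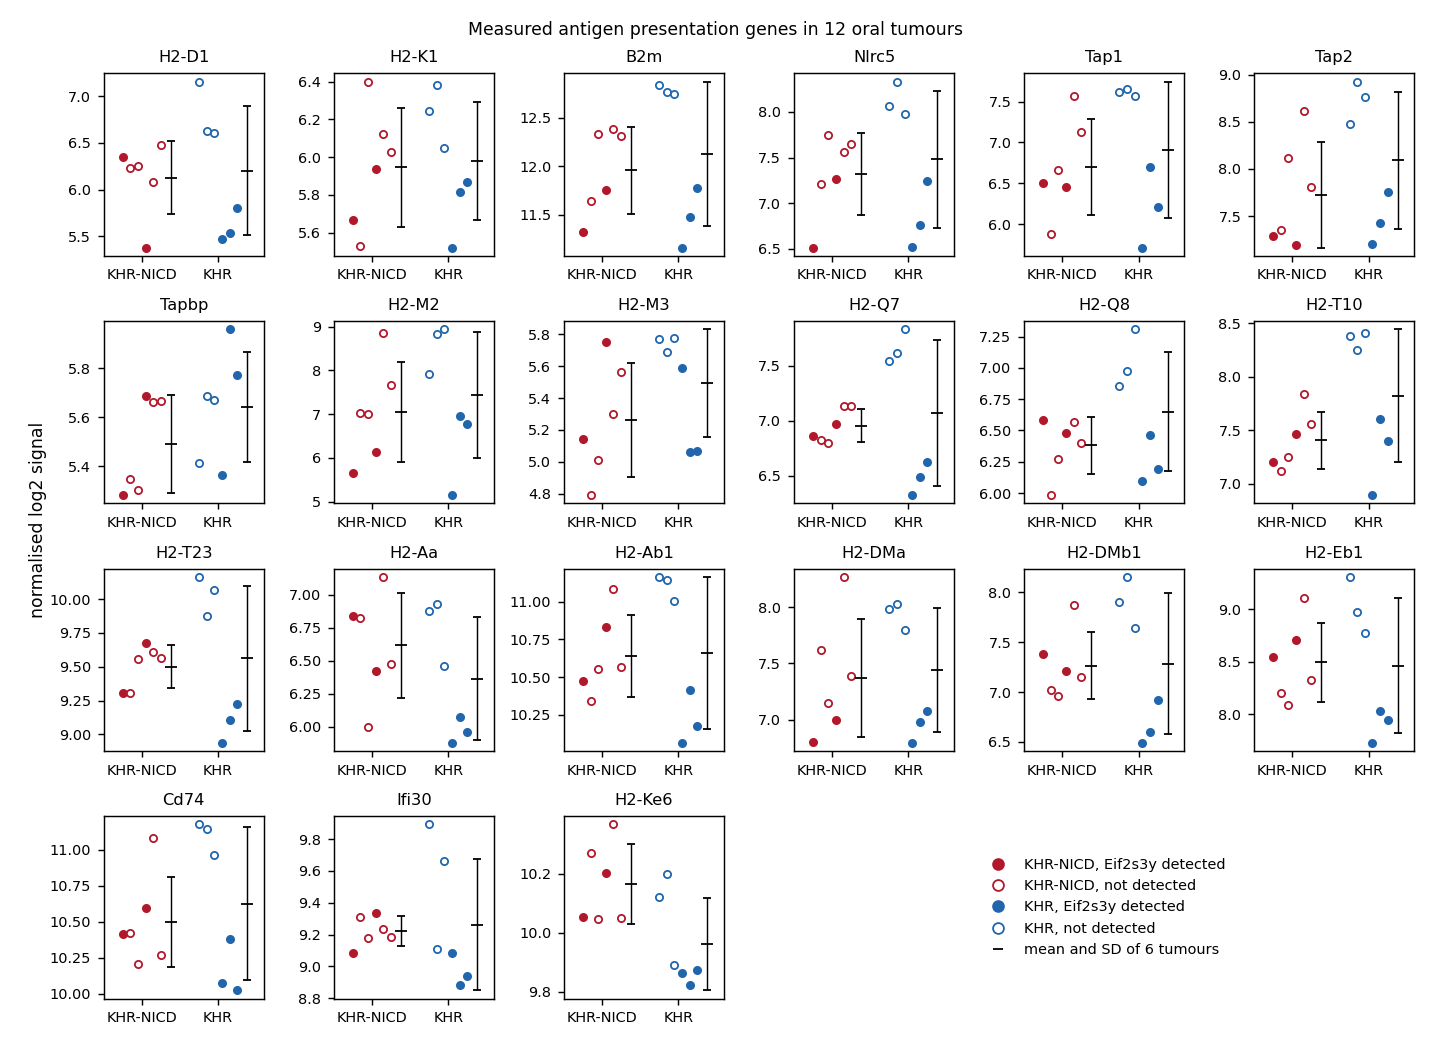
Normalised log2 signal of the 21 measured antigen presentation genes in each tumour, 1 panel per gene with its own scale, KHR-NICD at left and KHR at right, tumours 1 to 6 from left to right in each. Filled points are tumours with Eif2s3y detected, open points those without, and black marks the mean and SD of 6 tumours; in most panels the 3 open KHR points lie above the 3 filled KHR points.

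Of the 21 genes, 5 had several tested probes. B2m's second tested probe differed by -0.14 between the tumour types and its first by -0.17, and the Cd74 probes by -0.20 and -0.13. H2-Ab1 had 4 tested probes, with differences of -0.02, 0.03, 0.04 and 0.21. The probe at 0.21 disagreed with the others in KHR tumour 1, where it gave its lowest value of all tumours, 7.96, while the brightest probe gave its highest, 11.16. The 2 probes of Ifi30 had differences on opposite sides of 0, at -0.04 and 0.29, neither past the threshold. The H2-T23 probes gave -0.06 and -0.03. Probes also differed in the interaction with Eif2s3y that is described further on, from 0.24 to 1.04 for H2-Ab1, at 0.45 and 0.93 for H2-T23 and at 1.23 and 0.57 for Ifi30. Of the 28 probes tested, 0 were called, against 0.127% of all 11044 named probes tested, and for 0 of 28 the groups did not overlap, against 1.39%.

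Between the tumour types, 0 of the 21 measured genes were called at an adjusted p under 0.05 (limma, all 8420 genes), against a background of 17 genes or 0.202%. At an unadjusted p under 0.05, 1 of 21 passed, H2-Ke6, against 13.9% of all genes (6.83% higher and 7.1% lower). H2-Ke6 was 0.20 higher (SE 0.09) in KHR-NICD tumours, at 10.16 ± 0.14, than in KHR tumours, at 9.96 ± 0.16 (SD, n = 6 each), with limma's adjusted p = 0.350. The groups did not overlap for 0 of 21 genes, against 1.57% of all genes. Differences were below 0 for 13 of 13 class I and 5 of 7 class II genes, against 48.9% of all genes. The median difference was -0.17 over class I, -0.02 over class II and 0.01 over all genes. These genes share tumours and many of them are correlated, as shown further on, so their signs are not separate observations. With weights fitted to each array the class I and class II medians were 0.13 and 0.22. The median standard error of the 21 differences was 0.25, against 0.13 over all genes. The SD was larger among KHR than among KHR-NICD tumours for 19 of the 21 genes. The share over all genes was not counted, so this is not read as a trait of these genes.

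**Figure D3:**
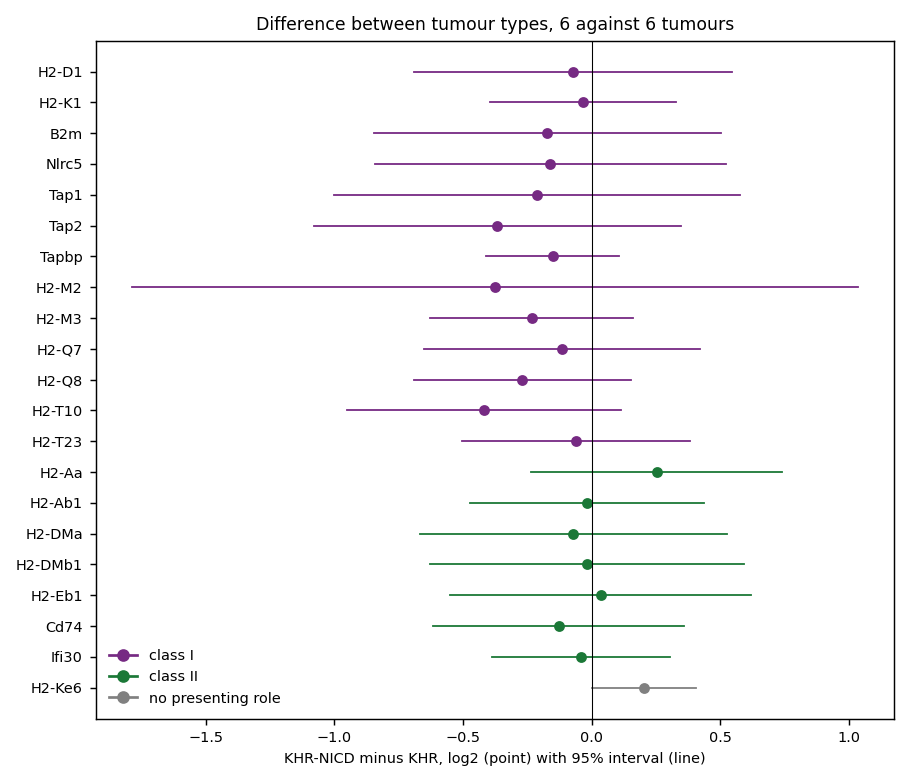
KHR-NICD minus KHR in log2 units for each measured gene (points) with its 95% interval (lines), 6 against 6 tumours, class I in purple, class II in green and H2-Ke6 in grey. The class I points all lie left of 0, from -0.42 to -0.03, and their intervals include 0.

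The spread among KHR tumours went with detection of Eif2s3y. Among KHR tumours this is also the split of replicate numbers 1 to 3 against 4 to 6. The 2 cannot be told apart there. The same holds for the KHR part of every value by Eif2s3y below. For 20 of the 21 genes, all but Tapbp, the 3 KHR tumours without Eif2s3y lay above all 3 KHR tumours with it, against 17.2% of all genes. The opposite order held for 0 of 21, against 17.3%. Among KHR-NICD tumours the 4 without Eif2s3y lay above the 2 with it for 3 of 21 genes, against 19.1% of all genes, and below them for 0 of 21, against 18.4%. The highest value of the 12 tumours was in a KHR tumour without Eif2s3y for 16 of 21 genes, against 27.7% of all genes. The class I mean over its 13 genes was 6.90, 6.94, 7.28, 7.09, 7.64 and 7.46 in KHR-NICD tumours 1 to 6, against 7.88, 7.97, 7.98, 6.61, 7.03 and 7.05 in KHR tumours 1 to 6. The class II mean over its 7 genes was 8.51, 8.54, 8.30, 8.59, 9.11 and 8.48 in KHR-NICD tumours, against 9.19, 9.07, 8.90, 8.02, 8.19 and 8.15 in KHR tumours. Both class means were lower in every KHR tumour with Eif2s3y than in every KHR tumour without it.

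In a fit with tumour type and Eif2s3y detection as terms, 10 of the 21 genes were lower in tumours with Eif2s3y at an adjusted p under 0.05 (limma), against 10.1% of all genes. These were H2-DMa and 9 class I genes, B2m, Nlrc5, Tap1, Tap2, H2-D1, H2-M2, H2-Q7, H2-T10 and H2-T23. This fit gives both tumour types the same Eif2s3y difference. Within KHR-NICD tumours, 3 of these genes hardly differed. With and without Eif2s3y, H2-Q7 averaged 6.92 and 6.97 there, H2-T23 9.49 and 9.51, and H2-T10 7.33 and 7.44. The other called genes were further apart in KHR-NICD tumours, such as B2m at 11.54 and 12.17. None of the 21 was called higher, and genes called in either direction made up 18.6% of all genes. The difference, tumours with Eif2s3y minus those without, was -0.99 for B2m (adjusted p = 0.00312), -0.99 for Nlrc5 (adjusted p = 0.00382), -1.01 for Tap2 (adjusted p = 0.00527), -0.85 for H2-DMa (adjusted p = 0.00456) and -2.03 for H2-M2 (adjusted p = 0.00438). It was -0.49 for Cd74, which did not pass (adjusted p = 0.0953). The skeletal muscle list, markers of another cell type, moved with the same split: 10 of its 11 measured genes were called lower with a median of -1.68, and its mean level ranged over 7.59 to 9.85 in KHR-NICD and 7.07 to 10.55 in KHR tumours. Other lists were mixed. Of 6 endothelial genes 3 were called higher, Robo4 at 0.60 (adjusted p = 0.0084), Pecam1 at 0.68 (adjusted p = 0.00856) and Emcn at 0.47 (adjusted p = 0.0378). Of 8 fibroblast genes 2 were called, Dcn lower at -1.08 (adjusted p = 0.000932) and Col1a1 higher at 0.85 (adjusted p = 0.0274). Of 7 macrophage genes 1 was called, Cd14, higher at 0.98 (adjusted p = 0.00204), and of 8 keratinocyte genes 1, Krt15, lower at -2.05 (adjusted p = 0.00573). In whole tumours, fewer cells of a type and less RNA per cell cannot be told apart. The part of these cells in this result was not tested. With the muscle mean as a term beside tumour type, the median difference between the types was -0.15 for class I and 0.01 for class II, and 0 of 21 genes were called. With Eif2s3y as a term, 0 of 21 genes were called for the tumour type, against 216 of 8420 genes or 2.57%.

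Within these sets the differences between the tumour types lay mostly on opposite sides of 0. In the tumours without Eif2s3y, 4 KHR-NICD against 3 KHR, 20 of 21 differences were below 0 with a median of -0.59, against 48.1% of all genes. In those with it, 2 KHR-NICD against 3 KHR, 17 of 21 were above 0 with a median of 0.26, against 49.4%. The median in tumours with Eif2s3y was 0.07 for class I and 0.44 for class II, and in tumours without it -0.61 and -0.47. Within either set 0 of 21 genes were called by limma, against 0.0119% of all genes without Eif2s3y and 0% with it. The interaction is the difference with Eif2s3y minus the difference without it. It was fitted because earlier results of these data had shown immune lists with opposite signs in the 2 sets. Its signs and p-values for immune genes are therefore not fresh evidence. The interaction was above 0 for 20 of 21 genes, against 48.4% of all genes. It had an unadjusted p under 0.05 for 13 of 21, 7 of class I and 6 of class II, against 17.9% of all genes in either direction and 8.79% above 0. Over all probes, 1 of 28 was called, that of H2-Q7, against 0.244%.

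H2-Q7 was the 1 gene called for the interaction, against 24 of all genes or 0.285%. It averaged 6.92 in the 2 KHR-NICD tumours with Eif2s3y, against 6.48 in the 3 KHR tumours with it. Without Eif2s3y it averaged 6.97 in 4 KHR-NICD tumours, against 7.66 in 3 KHR tumours. The interaction was 1.13 (limma, adjusted p = 0.0320), with adjusted p from 0.0293 to 0.213 over the alternatives. Without background correction it was 0.57 (adjusted p = 0.0425). The call was lost with median centring, with a skeletal muscle or a macrophage score as covariate, and in 10 of the 12 fits that left out 1 tumour. The next were H2-T23, with 0.93 (adjusted p = 0.0659), and H2-Q8, with 1.02 (adjusted p = 0.0927). H2-DMb1 and H2-Eb1 followed, at 1.27 and 1.31 with an adjusted p of 0.101 each. Beside these, the interaction was above 0 for 11 of 11 skeletal muscle genes (median 1.39), 7 of 7 macrophage genes (median 0.47), 8 of 8 fibroblast genes (median 0.63) and 4 of 8 keratinocyte genes.

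**Figure D4:**
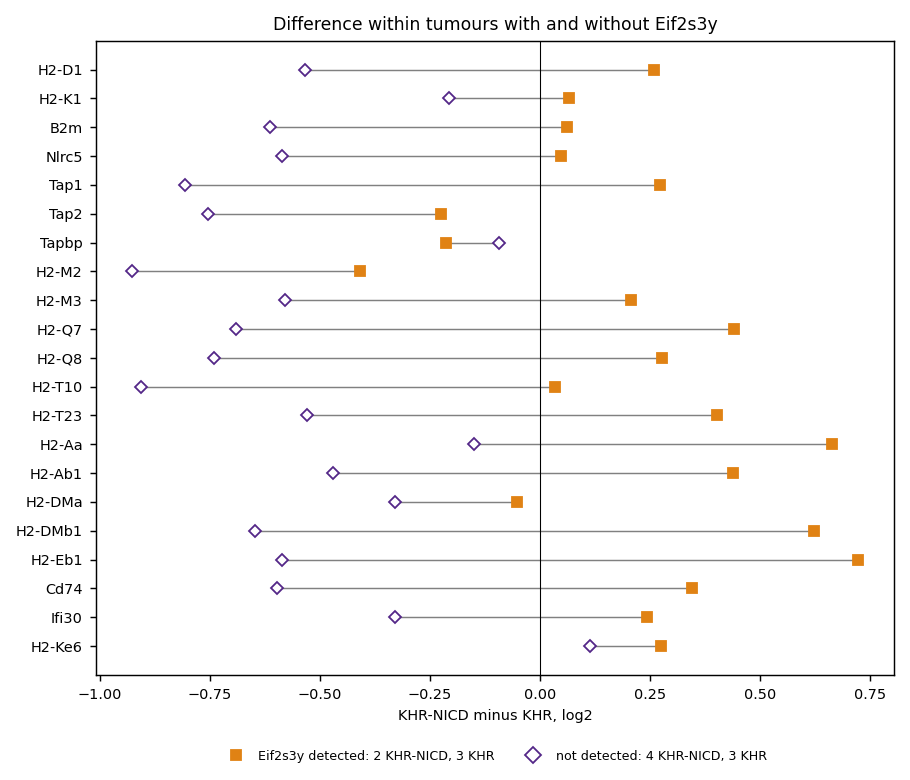
KHR-NICD minus KHR in log2 units for each measured gene within the tumours with Eif2s3y (orange squares, 2 KHR-NICD and 3 KHR tumours) and without it (open purple diamonds, 4 KHR-NICD and 3 KHR tumours). Squares lie to the right of diamonds for all genes but Tapbp.

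Genes that serve the same pathway were counted by list and read between the tumour types, and 0 were called in any of them, against the 0.202% of all genes. Of the peptide supply list for class I, the immunoproteasome, its activator and the chaperones that fold heavy chains, 10 of 12 were measured, with a median difference of -0.03. Psmb10, an immunoproteasome subunit, gave 0.19 (adjusted p = 0.434), Psme2, a proteasome activator subunit, 0.22 (adjusted p = 0.453) and Calr, a chaperone of the loading complex, -0.32 (adjusted p = 0.581), all from limma. Psmb9, another immunoproteasome subunit, was lower in tumours with Eif2s3y, at -1.09 (adjusted p = 0.00417). It was the 1 of these 10 genes called in that fit, against 18.6% of all genes. Of the endosomal processing list for class II, 8 of 9 were measured, with a median of -0.08. Its smallest p belonged to Ctsh, an endosomal protease, at -0.25 (adjusted p = 0.297), followed by Lgmn, asparagine endopeptidase, at -0.18 and Cd9, a tetraspanin, at -0.15. In tumours with Eif2s3y the endosomal proteases Ctsl, Ctsb and Ctsd were lower, at -0.86, -0.36 and -0.43 (adjusted p = 0.00184, 0.0158 and 0.0160). These are 3 of the 8 genes, against 10.1% of all genes called lower.

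Of the factors that bind the X and Y boxes or act with them, 5 of 10 were measured. Nfyb, a subunit of the NF-Y complex that reads the Y box printed above, gave 0.71 (SE 0.20, adjusted p = 0.143, limma). It averaged 10.07 ± 0.29 in KHR-NICD and 9.36 ± 0.46 in KHR tumours (SD, n = 6 each), and the groups overlapped. With Eif2s3y as a term, it was the 1 of these 5 genes called between the tumour types, against 2.57% of all genes. It was also the 1 called for Eif2s3y, at 0.49 (adjusted p = 0.0473), against 18.6% of all genes. Rfxap, a subunit of RFX, gave 0.16 and Ep300, a histone acetyltransferase, 0.18. Rfx5, which contacts the X box, and Nfya, which contacts the Y box, were detected on 0 arrays. Of the interferon-gamma list 10 of 17 were measured, with a median of -0.16. Jak1, a kinase of the receptor, gave 0.45 (adjusted p = 0.220), Socs3, a feedback inhibitor, -0.46 (adjusted p = 0.317) and Jak2, the second kinase, -0.28 (adjusted p = 0.376). The Jak1 probe was detected in 6 KHR-NICD and 2 KHR tumours, so most of its KHR values lay near background. Of these 10 genes 3 were called lower in tumours with Eif2s3y, against 10.1% of all genes. Irf9, a subunit of an interferon-activated transcription factor, was lower at -0.71 (adjusted p = 0.00290). The interferon-induced GTPases were lower too, Gbp2 at -0.998 (adjusted p = 0.0223) and Gbp3 at -0.42 (adjusted p = 0.0321). Ifng itself was detected on 0 arrays.

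Of the ligands that T cells read beside the peptide, 6 of 10 were measured, with a median of -0.30. Cd80, a costimulatory ligand of CD28, averaged 6.09 ± 0.36 in KHR-NICD and 6.82 ± 0.44 in KHR tumours (SD, n = 6 each), a difference of -0.74 (SE 0.21, limma, adjusted p = 0.145). Cd274, which encodes PD-L1, averaged 6.24 ± 0.53 in KHR-NICD and 6.95 ± 0.26 in KHR tumours, a difference of -0.72 (SE 0.22, adjusted p = 0.163). Cd276 gave -0.30 (adjusted p = 0.397). It was the 1 of these 6 genes called for Eif2s3y, higher at 0.46 (adjusted p = 0.00587), against 18.6% of all genes. The tumour types overlapped for Cd80, Cd274 and Cd276. The interaction with Eif2s3y was 0.52 for Cd80 (adjusted p = 0.550) and -0.05 for Cd274 (adjusted p = 0.964).

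Few markers of cells that carry class II were measured. Of the macrophage list 7 of 14 were measured, 4 of them above 0, with a median difference of 0.10 and a summed normalised signal of 699 to 1253 in KHR-NICD and 876.1 to 1358 in KHR tumours. Itgam and Fcgr1, defining macrophage genes, were detected on 0 arrays. Of the dendritic and Langerhans cell list 3 of 12 were measured, with Itgax, Flt3 and Clec9a detected on 0 arrays. The summed signal of these 3 was 1270 to 1842 in KHR-NICD and 1504 to 2128 in KHR tumours. Cd207, the langerin of Langerhans cells, differed by 0.09 between the types (adjusted p = 0.955, limma) and was lower in tumours with Eif2s3y, at -1.43 (adjusted p = 0.00173). Fscn1, fascin of mature dendritic cells, differed by -0.29 between the types (adjusted p = 0.389) and was higher in tumours with Eif2s3y, at 0.38 (adjusted p = 0.0302). Xcr1, a chemokine receptor of cross-presenting dendritic cells, gave -0.03 between the types (adjusted p = 0.941) and -0.06 for Eif2s3y (adjusted p = 0.796). Of 9 B and plasma cell markers 0 were measured, and of 14 T and NK cell markers 1, the perforin gene Prf1, while Cd4 and Cd8a were detected on 0 arrays. Of the keratinocyte list 8 of 10 were measured, with Krt14 at 14.32 ± 0.06 in KHR-NICD and 14.30 ± 0.05 in KHR tumours (SD, n = 6 each). The part of these cells in the differences between the types was not tested.

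**Figure D5:**
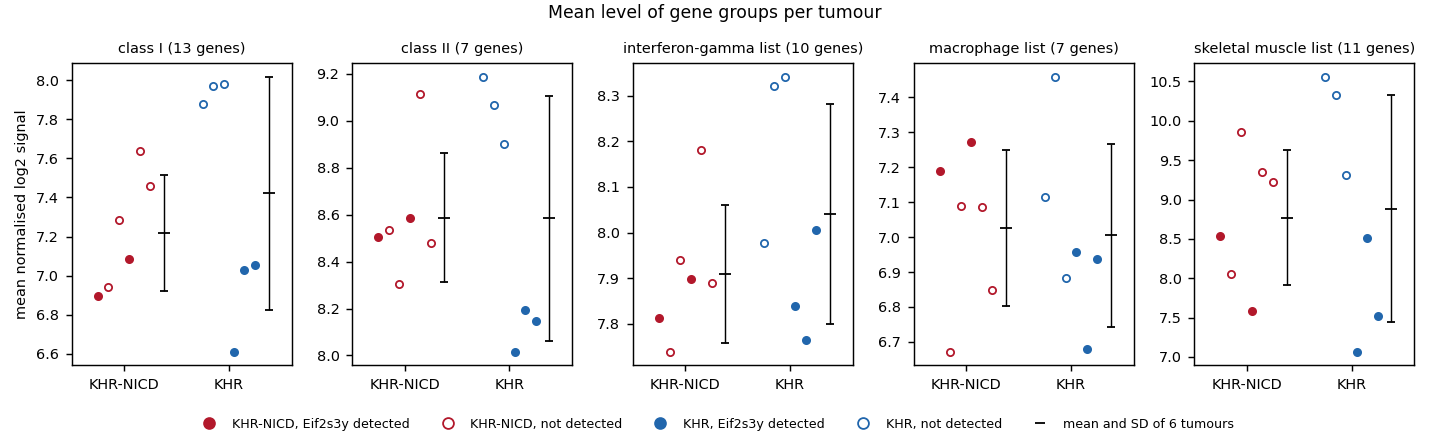
Mean normalised log2 signal per tumour over the measured genes of 5 groups, KHR-NICD at left and KHR at right in each panel, tumours 1 to 6 from left to right. Filled points are tumours with Eif2s3y detected, open points those without, and black marks the mean and SD of 6 tumours. The class I, class II and skeletal muscle means are higher in all 3 open KHR points than in the 3 filled ones. The macrophage and interferon-gamma lists do not show this. Of the lists not drawn, the peptide supply, endosomal processing, T cell ligand, dendritic and Langerhans cell and keratinocyte means divided the KHR tumours likewise. The promoter factor, fibroblast, endothelial and T and NK cell lists did not.

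Many antigen presentation genes were correlated across the 12 tumours. Of 23 pairs listed, 16 had both genes measured, and 14 of these had a Benjamini-Hochberg adjusted permutation p under 0.05 for Pearson's r. Across the 12 tumours Cd74 followed H2-Ab1 with r = 0.947 (rho = 0.867) and H2-Eb1 with r = 0.943 (rho = 0.937), with permutation p of 4e-05 and 2e-05 for r (adjusted 0.00016 and 0.000107) and 0.00062 and 5e-05 for rho. Without the 2 tumours farthest from the Cd74 median r was 0.914 and 0.916. B2m followed Nlrc5 with r = 0.971 and rho = 0.958 (permutation p = 1e-05, the smallest 100000 resamples can give, adjusted 8e-05, and 2e-05 for rho), and r was 0.961 without the 2 farthest. In the 7 tumours without Eif2s3y, r was 0.935 for Cd74 with H2-Ab1 (exact permutation p = 0.0361), 0.959 for Cd74 with H2-Eb1 (exact permutation p = 0.00437) and 0.92 for B2m with Nlrc5 (exact permutation p = 0.00833). The 5 with Eif2s3y were too few for a value. Within a tumour type some pairs of a class were weaker. B2m with H2-D1 had r = 0.755 over the 12 tumours (rho = 0.713, permutation p = 0.00523 and 0.0121, adjusted 0.00761 for r) and 0.611 without the 2 farthest. Its r was 0.149 within KHR-NICD (exact permutation p = 0.808) and 0.961 within KHR tumours (exact permutation p = 0.00278). In the 7 tumours without Eif2s3y it was 0.676 (exact permutation p = 0.0464). Cd74 with Ifi30 had r = 0.639 over the 12 tumours (rho = 0.678, permutation p = 0.0225 and 0.0192, adjusted 0.0257 for r) and 0.668 without the 2 farthest. Its r was 0.311 within KHR-NICD (exact permutation p = 0.578), 0.717 within KHR (exact permutation p = 0.117) and 0.464 in the tumours without Eif2s3y (exact permutation p = 0.373).

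Across the classes Cd74 followed B2m with r = 0.734 and rho = 0.65 (permutation p = 0.0101, adjusted 0.0135, and 0.026 for rho). This fell to 0.562 without the 2 farthest tumours. Within KHR-NICD tumours r was 0.166 (exact permutation p = 0.847) and within KHR tumours 0.927 (exact permutation p = 0.0528). In the 7 tumours without Eif2s3y it was 0.677 (exact permutation p = 0.117). The 2 pairs that did not pass were B2m with Tapbp, r = 0.13 and rho = 0.147 (permutation p = 0.683, adjusted 0.683, and 0.651 for rho), and Cd74 with the macrophage gene Aif1, r = 0.4 and rho = 0.308 (permutation p = 0.198, adjusted 0.211, and 0.329 for rho), which was -0.309 without the 2 farthest tumours. The genes of a pair were measured on the same arrays and share those arrays' normalisation.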

How the data were processed

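Bead array signals of 12 tumours were used. The authors deposited a scanner table giving, for each probe and array, an unnormalized intensity, a detection p-value, a bead count and a bead standard error, per the file headers. The authors' own processed intensity values, also deposited, served as an alternative. GenomeStudio and Partek were used upstream, per the submitters' processing notes, in roles and versions not given in the sources used here. Columns were matched to the tumours through their labels.

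Signals were normalised by the neqc function (limma 3.58.1, R 4.3.3; background from the detection p-values, offset 16, quantile) to log2 values. Probes detected at p under 0.05 on at least 6 of 12 arrays were kept, and a gene with several kept probes was represented by its brightest one on average, which gave 8420 genes. The platform annotation named 1 gene for 23978 of 25697 probes, several for 0, and did not list 1719. Current symbols were looked up by Entrez identifier, which matched 23962 probes. The files name no genome build. Promoter windows come from RefSeq, GRCm38.p6.

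KHR-NICD minus KHR was fitted with lmFit and eBayes over all genes, with no block, and Benjamini-Hochberg adjustment. A second fit added detection of Eif2s3y, and another its product with tumour type. Correlations used permutation tests in SciPy 1.17.1 under Python 3.11.15. The fits were tested on simulated data with known changes. Precision is limited by how few arrays there are. The genes, lists and tests were chosen with earlier results of these data known. By rule, values per tumour are given for the main class I and II genes, the 3 genes of each class with the smallest p and every gene called in either fit, and from each pathway list the genes called and the 3 with the smallest p. The cell type marker lists are given by counts and chosen examples. Genes named beyond that rule were chosen after their values were seen. Alternatives were the deposited processed values, background, offset, centring, filter, probe choice, variance model, array weights, covariates, a replicate block and leaving out each tumour.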

Additional observations from a re-analysis of the deposited data

Results flagged for a closer look

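H2-D1 in KHR-NICD tumour 4 stood apart from the others of its type, at 5.38 against 6.08 to 6.48 in the other 5. Of 42 groups of 6 examined, 1 had such a sample, and chance gives about 1 in 20.

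The difference between tumour types for H2-Q7 was not the same in tumours with and without Eif2s3y. The interaction was 1.13 (limma, adjusted p = 0.0320). It was above 0 also for 19 of the other 20 measured genes but called for H2-Q7 alone. The interaction was fitted after immune lists in these data were seen to differ in sign between these sets of tumours.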

How the results depend on the processing

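Under every alternative run, 0 of the antigen presentation genes tested were called between tumour types. These were 21 genes unless the filter or probe choice changed. They were 24 with detection on at least 1 array, 44 with no filter, 19 with detection p under 0.01 and 18 with detection on all arrays. With every probe, 28 probes were tested. The count over all genes, 17, was 95 at an adjusted p under 0.1, 28 without background correction, 54 (5 higher, 49 lower) with median centring, 29 and 31 with other variance models, 125 with array weights, 216 with Eif2s3y and 107 with a muscle score as covariate, 0 and 1 in tumours with and without Eif2s3y alone, and 1 to 24 without single tumours. Median centring moved the median of all genes to -0.08. The class II median was 0.44 and -0.47 in tumours with and without Eif2s3y.

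The interaction called 24 genes, 1 of them here. These counts were 84 and 2 without background correction, 47 and 2 with offset 50, 62 and 2 with a variance trend, 78 and 2 with a robust trend, 4 and 0 with median centring, 0 and 0 with a muscle or a macrophage covariate, and 0 to 245 and 0 to 4 without single tumours. The H2-Q7 interaction was 0.57 (adjusted p = 0.0425) without background correction, 0.90 (0.0387) with offset 50, 1.29 (0.0421) with the deposited processed values, 1.26 (adjusted p = 0.0682) with median centring, 1.16 (0.161) with the muscle and 1.19 (0.213) with the macrophage covariate, and 1.04 to 1.20 without single tumours, where it was called only without KHR tumour 3 or KHR-NICD tumour 5.

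Replicate numbers did not pair the tumours: 2 of 6 same-number correlations exceeded 0.1 (-0.221 to 0.454) and 0 tumours matched their own number best. With the replicate block 1 gene was called and 0 of 21.

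Signs turned in these cases. Median centring gave H2-Eb1 -0.0545, and the mean of probes H2-Ab1 0.0638 and Ifi30 0.12. Array weights gave B2m 0.21, Cd74 0.0646, H2-Ab1 0.17, H2-D1 0.24, H2-DMa 0.23, H2-DMb1 0.22, H2-K1 0.12, H2-M2 0.30, H2-Q7 0.13, H2-T23 0.14, Ifi30 0.10, Nlrc5 0.20 and Tap1 0.17. The Eif2s3y covariate gave H2-Eb1 -0.0477, and the muscle covariate H2-Ab1 0.0114 and H2-DMb1 0.0208. Tumours with Eif2s3y alone gave B2m 0.0614, Cd74 0.35, H2-Ab1 0.44, H2-D1 0.26, H2-DMb1 0.62, H2-K1 0.0666, H2-M3 0.21, H2-Q7 0.44, H2-Q8 0.28, H2-T10 0.0337, H2-T23 0.40, Ifi30 0.24, Nlrc5 0.0487 and Tap1 0.27, and those without it H2-Aa -0.15 and H2-Eb1 -0.59. Without single tumours H2-Ab1 ran over -0.14 to 0.082, H2-D1 -0.22 to 0.12, H2-DMa -0.25 to 0.0445, H2-DMb1 -0.18 to 0.16, H2-Eb1 -0.11 to 0.21, H2-K1 -0.12 to 0.0505, H2-Q7 -0.27 to 0.0375, H2-T23 -0.19 to 0.0599, Ifi30 -0.12 to 0.0849 and Nlrc5 -0.35 to 0.0098. The cause was not tested. The slide as a block was not run, since no slide is given. For the interaction, the covariates and the fits without single tumours were added after its values were seen. Signal near background limits H2-M3, Tapbp and H2-K1, and the lowest values of H2-D1 and H2-M2.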

Other observations

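Among the keratinocyte markers, Krt15, a keratin of basal and stem-like epithelial cells, had the smallest adjusted p for the interaction. It averaged 8.04 ± 0.45 in KHR-NICD and 8.13 ± 1.83 in KHR tumours (SD, n = 6 each), a difference of -0.09. The difference was 0.98 in tumours with Eif2s3y and -1.43 in tumours without it, and the interaction of 2.41 did not pass (limma, adjusted p = 0.0606). Krt5 and Krt14, keratins of the basal layer, differed by 0.01 and 0.02 between the types, with interactions of -0.11 and -0.09. Krt14 lay with Krt16 and Krt17 at the bright end of the scale, where all averaged 14.20 to 14.32 in both types. Differences may be compressed there, so these values are not set against Krt15.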
